A study of Homo sapiens with 9 samples.

Results

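Interferon signalling was described here through 55 genes, taken as the rows of the deposited expression table whose symbol is a listed receptor, STAT or IRF factor or interferon-stimulated gene, or that join such a gene with others. They fell on 53 of the 24069 rows, because the authors' table joins IFITM1 with IFITM2, IFI44 with IFI44L, IFNAR2 with IL10RB and IRF9 with RNF31, and the values of a joined row cannot be split. RNA was sequenced from LC-2/ad cells, an established human lung adenocarcinoma line with a CCDC6-RET fusion, as 3 libraries of the ponatinib-resistant derivative PR2, 3 of the derivative PR1 and 3 of the parental line, called LC2 here; the libraries of each are lettered A, B and C. Ponatinib is a multi-kinase inhibitor that also acts on RET. PR2 and PR1 were both kept in 200 nM ponatinib and no drug is stated for LC2, so that resistance and the presence of the drug cannot be told apart in a comparison with LC2. Neither the clonal state of a derivative nor the origin of the letters (separate cultures or repeat preparations) is stated, so the spread behind every p-value is that between libraries and could be technical.

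Type I interferons bind a receptor made of IFNAR1 and IFNAR2, and interferon gamma binds one made of IFNGR1 and IFNGR2. Receptor-bound JAK kinases then phosphorylate STAT factors. STAT2 acts with IRF9 in a complex that binds the interferon-stimulated response element (ISRE), and interferon gamma signals through the gamma-activated site (GAS). The induced genes encode sensors of viral RNA, enzymes that degrade or mark it, membrane proteins that hinder viral entry and release, and the ubiquitin-like protein ISG15, and many tumour cell lines express some of them without added interferon.

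Promoter windows of RefSeq (GRCh38.p14, 250 bases before to 50 after a start site) were found for 44 of the 55 genes. The ISRE core was searched on both strands as GAAANNGAA and was present in a window of 28 of those 44 genes, 63.6%, against 9.22% of the 15843 protein-coding genes with a window. GAS was searched as TTCNNNGAA, which reads as the same pattern on both strands, and was present for 13 of the 44 genes, 29.5%, against 8.98% of the coding genes. The windows shown first are those of the 5 genes with the largest called difference between PR2 and PR1, followed by that of IFITM1, added after its values were seen because its row moved the other way. Capitals mark matches to the ISRE core on either strand, those in MX1 overlap each other, and for a gene with several windows the one with most matches is shown.
IFI6, chr1:27672143-27672442, minus strand: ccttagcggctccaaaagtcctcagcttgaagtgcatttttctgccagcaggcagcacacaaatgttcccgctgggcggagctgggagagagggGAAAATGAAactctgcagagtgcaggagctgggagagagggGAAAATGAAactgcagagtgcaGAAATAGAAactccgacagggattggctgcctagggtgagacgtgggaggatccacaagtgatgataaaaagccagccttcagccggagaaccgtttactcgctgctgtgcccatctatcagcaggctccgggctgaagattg
IFI35, chr17:43006534-43006833, plus strand: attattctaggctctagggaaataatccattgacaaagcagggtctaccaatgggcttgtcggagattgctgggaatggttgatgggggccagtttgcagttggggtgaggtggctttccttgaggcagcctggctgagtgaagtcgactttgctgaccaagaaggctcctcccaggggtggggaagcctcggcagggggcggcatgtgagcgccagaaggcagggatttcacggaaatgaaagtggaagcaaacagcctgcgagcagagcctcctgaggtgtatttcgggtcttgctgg
IFI27, chr14:94110486-94110785, plus strand: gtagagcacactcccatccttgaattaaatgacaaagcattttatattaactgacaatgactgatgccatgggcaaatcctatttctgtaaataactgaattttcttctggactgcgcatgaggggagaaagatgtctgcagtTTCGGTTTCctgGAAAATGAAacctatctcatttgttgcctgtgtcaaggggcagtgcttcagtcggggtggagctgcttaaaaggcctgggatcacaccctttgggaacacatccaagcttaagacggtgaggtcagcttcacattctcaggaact
MX1, chr21:41420308-41420607, plus strand: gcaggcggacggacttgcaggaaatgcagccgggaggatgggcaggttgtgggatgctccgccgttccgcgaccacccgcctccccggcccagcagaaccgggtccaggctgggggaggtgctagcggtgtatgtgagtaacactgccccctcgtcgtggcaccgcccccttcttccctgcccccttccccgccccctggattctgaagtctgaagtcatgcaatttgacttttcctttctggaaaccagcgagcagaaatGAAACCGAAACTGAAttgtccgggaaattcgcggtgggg
SAMD9L, chr7:93148336-93148635, minus strand: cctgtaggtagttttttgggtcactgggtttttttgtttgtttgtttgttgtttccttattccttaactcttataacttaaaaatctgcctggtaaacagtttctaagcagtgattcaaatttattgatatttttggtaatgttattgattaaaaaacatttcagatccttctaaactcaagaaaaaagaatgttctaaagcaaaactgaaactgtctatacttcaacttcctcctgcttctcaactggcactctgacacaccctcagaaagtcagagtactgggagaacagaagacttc
IFITM1, chr11:313790-314089, plus strand: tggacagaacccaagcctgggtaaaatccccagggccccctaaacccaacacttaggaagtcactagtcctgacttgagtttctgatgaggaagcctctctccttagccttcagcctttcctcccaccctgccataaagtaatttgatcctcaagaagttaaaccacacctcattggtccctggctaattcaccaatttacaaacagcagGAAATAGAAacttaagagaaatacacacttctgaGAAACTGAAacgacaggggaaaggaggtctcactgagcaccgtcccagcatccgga

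The IFI6 window held 3 matches, at 156, 115 and 93 bases before the start site by their first base, and the first pair of these spells the same 9 letters. The IFI27 window held 2 matches on opposite strands. The IFI35 and SAMD9L windows held none. Of the windows shown, those of IFI35 (TTCACGGAA), IFI27 (TTCCTGGAA) and IFITM1 (TTCTGAGAA) each held 1 GAS match. IFITM1 held 2 matches, so a match stood in windows of genes that were higher in PR2 than PR1 and of a gene whose row was lower. A match is a description of the letters and no match says only that they are not in the window.

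All 8 receptor and STAT or IRF rows and 42 of the 45 rows of induced genes reached 1 FPKM (fragments scaled to transcript length and library size) in at least 3 of the 9 libraries and were tested. RSAD2, HERC5 and SP100 did not. Of the 50 tested rows, 38 were at 1 FPKM or more in every library. OAS2 reached that level in all libraries of LC2 alone, and IFIT1 and EPSTI1 in all of PR2 alone. DHX58, OASL, MX1, MX2, TRIM22, XAF1, SAMD9 and SAMD9L reached it in all of PR2 and LC2 but not of PR1. Of these 11 rows, all but IFIT1 passed only through the groups in which their means are higher. IFIT1 also reached 1 FPKM in PR1 A, PR1 C, LC2 A and LC2 C. The remaining row, CMPK2, reached it in 3 libraries and throughout no group. Fold changes are limma estimates of log2(FPKM + 1), so that low genes show smaller changes than their FPKM ratios, and a call is a Benjamini-Hochberg adjusted p under 0.05 over all 12011 tested rows of the table. The spread is the SD over 3 libraries for FPKM and the standard error (SE) for a log2 fold change.

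Epithelial markers were present in every library, with EPCAM between 286 and 426 FPKM. KRT18 was lower in PR2 than LC2 (-0.82, SE 0.24, limma adjusted p = 0.0347), while EPCAM, KRT8, KRT19 and CDH1 were called in no comparison. The summed FPKM of 7 fibroblast markers was 9.96 to 11.3 in PR2, 6.23 to 8.98 in PR1 and 5.49 to 9.51 in LC2, most of it COL1A1, with COL1A2 and DCN at or near 0. PDGFRA went the other way, at 0.00336, 0.527 and 0.811 FPKM in PR2, 0.214, 0.549 and 0.695 in PR1 and 1.095, 1.53 and 1.82 in LC2. It was lower in PR2 than LC2 (-0.81, SE 0.23, limma adjusted p = 0.0275), and COL1A1 was not called. The sum of 7 leukocyte markers was 0.731 to 1.25 in PR2, 1.24 to 1.84 in PR1 and 3.64 to 9.24 in LC2, where CD14 made up most of it, while TYROBP was listed at 0 in all libraries and PTPRC did not exceed 0.0196 FPKM. CD68, also on the leukocyte list, was left out of the sum. Its row is joined with EIF4A1, MPDU1 and SENP3, was at 270.2 to 545.5 FPKM and cannot be split. The part of either marker set in the results below was not tested. Of 4 markers of plasmacytoid dendritic cells, which are strong interferon producers, 3 were listed at 0 throughout and the highest value was 0.0232 FPKM. Relative depth, read from the smallest steps of low genes, was approximately 0.758 to 1.01 of that of LC2 A.

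The resistant derivatives differed from each other in 21 of the member rows. Against PR1, PR2 had 18 of the 50 tested rows higher and 3 lower in the limma test, where 11.0% of all tested rows were higher and 8.92% lower, 19.9% in all. At 2-fold or more, 12 were higher and 1 lower, where 7.48% of all rows were called in either direction. The median log2 difference of the 50 rows was 0.41, against 0.00 for all rows. In RNA from whole cultures, fewer expressing cells and less RNA per cell cannot be told apart. Without overlap between the 3 libraries of each derivative, 23 rows were higher in PR2 (20.4% of all rows) and 3 were lower (18.2%). Of the 21 called rows, IFI6, IFI35, IFI27, MX1, HERC6 and ISG15 kept their call under all 18 alternatives. SAMD9L, XAF1, OAS2 and EPSTI1 kept it under 17 and were not tested at the filter of 5 FPKM. Of the higher rows, MX1, MX2, XAF1, SAMD9, SAMD9L, EPSTI1 and OAS2 passed the 1 FPKM filter through only some of the groups, and IFIT1 reached 1 FPKM throughout PR2 alone. At the filter of 5 FPKM, with 39 rows tested, 10 were higher and 3 lower. The number of higher rows was 10 without PR1 B or without PR2 C and 11 without PR2 B, and the number of lower rows was 0 without PR1 A or without PR1 B and 1 without PR1 C, PR2 A or PR2 C. Here and below, the share of all rows called under an alternative was not counted.

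Against LC2, more of the called members were lower in PR1, and more were higher in PR2. PR1 had 11 of 50 rows lower and 1 higher, where 7.98% of all tested rows were lower and 7.56% higher, 15.5% in all. At 2-fold or more, 7 were lower (6.67% of all rows in either direction), and 17 rows lay below LC2 without overlap (15.0% of all rows) and 3 above (16.6%). Its median log2 difference was -0.32, against 0.05 over all rows. Of the lower rows, DHX58, OAS2, MX1, MX2, XAF1 and SAMD9L passed the 1 FPKM filter through only groups in which they are higher. At a filter of 5 FPKM, with 39 rows tested, 6 were lower and 1 higher. With the library letter as a replicate block, 18 rows were lower and 3 higher. The share of all rows called with the block was not counted. PR2 had 10 rows higher and 1 lower, where 13.6% of all tested rows were higher and 9.83% lower, 23.4% in all. At 2-fold or more, 6 were higher (9.52% of all rows in either direction), and 15 rows lay above LC2 without overlap (22.3% of all rows) and 6 below (17.6%). Its median log2 difference was 0.13, against 0.03 over all rows. With the replicate block, 14 rows were higher in PR2 and 4 lower. Of the rows called in PR2, EPSTI1, SAMD9L and DHX58 passed the 1 FPKM filter through only some of the groups, and IFIT1 reached 1 FPKM throughout PR2 alone. At a filter of 5 FPKM, with 39 rows tested, 6 were higher and 0 lower. The PR1 count of lower rows was 7 without PR1 A or without PR1 B, and its higher row, IFIT3, lost its call without LC2 B, LC2 C, PR1 A or PR1 C, while DDX58 passed beside it without LC2 A and IFIT2 without PR2 A. The PR2 count of higher rows was 16 without LC2 A, 5 without LC2 B, and 6 without PR2 B or PR2 C. Leaving out the 3 A libraries together gave 17. The lower row in PR2, DHX58, lost its call without LC2 B (where CMPK2 passed in its place), LC2 C, PR2 A, PR2 C or any 1 library of PR1, and ISG20 passed beside it without LC2 A. The 3 comparisons share libraries, so their values are given side by side and no overlap between them is read.

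**Figure D1:**
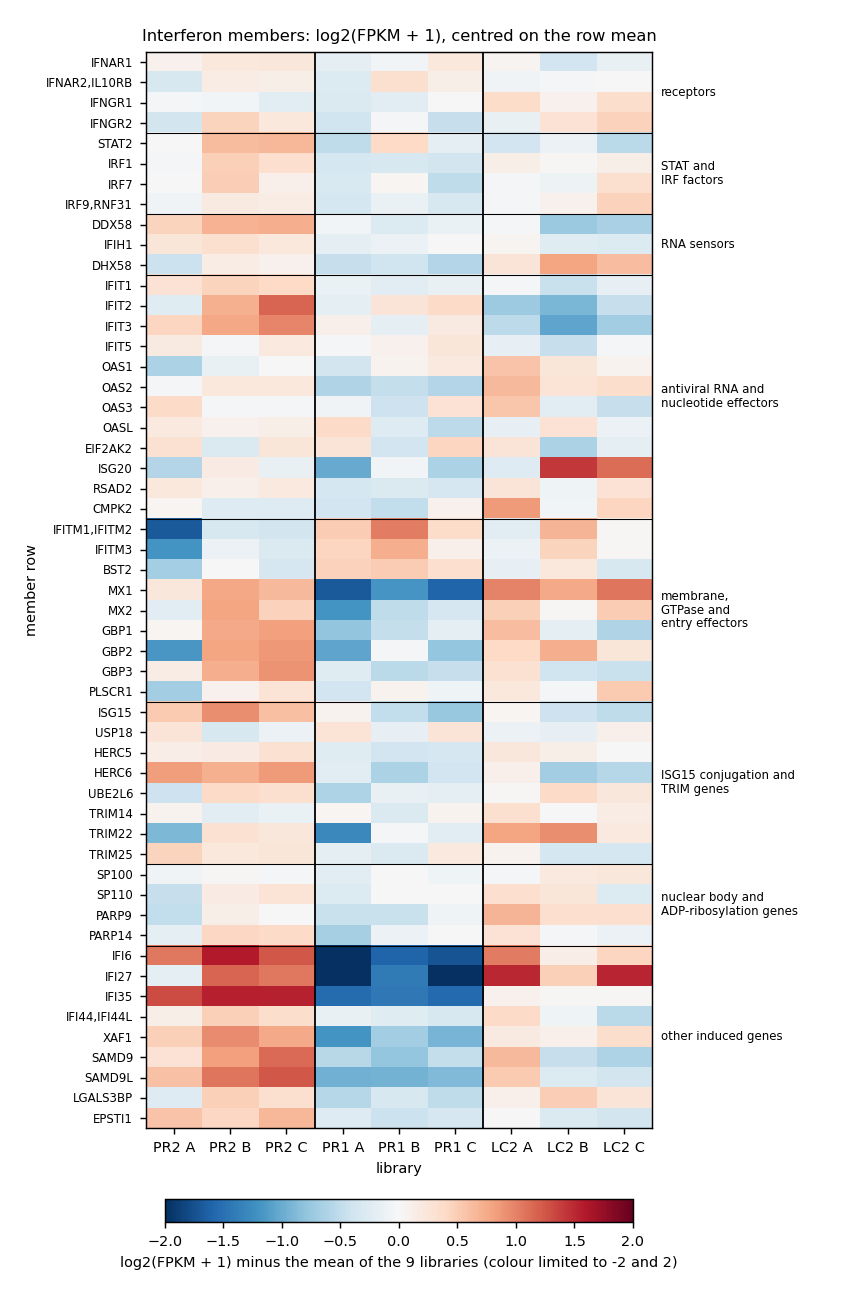
Heat map of all 53 rows in the 9 libraries, in the order PR2, PR1 and LC2, with rows grouped by role. Colour gives log2(FPKM + 1) minus the row mean, limited to -2 and 2. IFI6, IFI35 and SAMD9L are low in all 3 PR1 libraries and high in all 3 of PR2, and the IFITM rows are lowest in PR2 A.

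The receptor chains were present at moderate levels in every library. IFNAR1 was at 14.04, 15.4 and 15.5 FPKM in PR2 libraries A, B and C, at 11.4, 12.7 and 15.4 in PR1 and at 13.8, 9.84 and 11.8 in LC2. Every PR2 value of IFNAR1 was above every LC2 value, but the limma log2 difference of 0.33 (SE 0.16) did not pass (adjusted p = 0.181). The joined row of IFNAR2 with IL10RB, a chain shared by interleukin-10 and interferon lambda receptors, averaged 28.6 ± 5.10 FPKM in PR2, 30.1 ± 6.19 in PR1 and 27.7 ± 0.596 in LC2 (SD, n = 3 each), and the groups overlapped in all comparisons.

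IFNGR1, the ligand-binding chain of the interferon gamma receptor, was at 30.7, 30.3 and 26.6 FPKM in PR2, at 25.5, 26.8 and 31.0 in PR1 and at 40.8, 33.4 and 40.3 in LC2. Both derivatives lay below LC2 without overlap, yet neither difference passed, with a log2 change of -0.37 (SE 0.15, limma adjusted p = 0.0968) in PR2 and -0.44 (SE 0.15, limma adjusted p = 0.0687) in PR1. With the replicate block, the PR1 difference passed (limma adjusted p = 0.0457). IFNGR2, the signal-transducing chain, had the highest mean of the receptor rows and was at 27.8, 49.7 and 42.2 FPKM in PR2, at 27.4, 35.1 and 25.9 in PR1 and at 32.8, 44.7 and 50.4 in LC2, with overlap in every comparison.

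Of the STAT and IRF factors, IRF1 was called, between the derivatives. IRF1, a transcription factor induced through a GAS element, was at 20.5, 29.4 and 26.6 FPKM in PR2, at 16.1, 16.5 and 16.0 in PR1 and at 22.7, 21.3 and 22.8 in LC2. The PR1 libraries lay within a narrow band below all others. IRF1 was higher in PR2 than PR1 by 0.61 on the log2 scale (SE 0.15, limma adjusted p = 0.0198), a call lost without PR1 B, PR1 C, PR2 B or PR2 C (adjusted p up to 0.0924). PR1 against LC2 gave -0.44 (SE 0.15, limma adjusted p = 0.0830), and 0.0498 with the replicate block.

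STAT2, the partner of IRF9 in the ISRE-binding complex, was at 15.5, 24.4 and 24.9 FPKM in PR2, at 10.5, 20.7 and 13.5 in PR1 and at 11.6, 14.2 and 10.3 in LC2. PR2 lay above LC2 in all libraries, with a log2 difference of 0.78 (SE 0.26, limma adjusted p = 0.0521), while PR1 overlapped both. With the replicate block the STAT2 differences of PR2 from LC2 (limma adjusted p = 0.00970) and from PR1 (limma adjusted p = 0.0480) passed. The joined IRF9 and RNF31 row was at 27.7, 33.0 and 32.3 FPKM in PR2, at 22.6, 26.4 and 22.99 in PR1 and at 28.6, 30.9 and 40.3 in LC2. Its PR1 values lay below all others, with a log2 difference of -0.44 from LC2 (SE 0.16, limma adjusted p = 0.0961, and 0.0438 with the replicate block). RNF31, a subunit of a linear ubiquitin ligase, shares the row and its share is not known. IRF7, which drives interferon alpha genes after viral sensing, had the highest mean of these factors, at 34.2, 48.6 and 36.6 FPKM in PR2, 27.3, 34.9 and 23.6 in PR1 and 33.3, 31.6 and 43.0 in LC2, with overlap in every comparison.

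No row of the 8 receptors and factors was called in limma against LC2, where 3 had an unadjusted p under 0.05 in PR1 and 2 in PR2. Between the derivatives 1 was called and 2 had an unadjusted p under 0.05. Of the 42 tested rows of induced genes, 17 were called higher and 3 lower in PR2 than in PR1, 10 higher and 1 lower in PR2 than in LC2, and 1 higher and 11 lower in PR1 than in LC2. Over all tested rows, 11.0% were higher and 8.92% lower in PR2 than PR1, 13.6% and 9.83% in PR2 than LC2, and 7.56% and 7.98% in PR1 than LC2. In either direction the induced rows called in PR2 over LC2 were near the 23.4% of all rows, and 8 rows are too few to read a count of 0 against these shares. The difference between the induced genes and the receptors and factors was not tested.

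**Figure D2:**
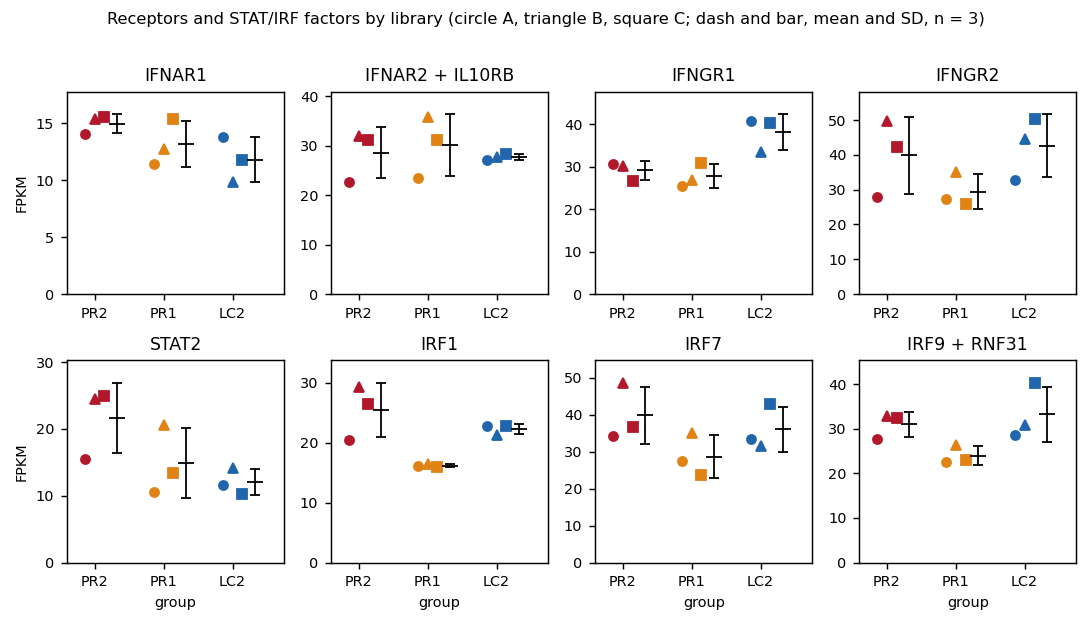
FPKM of the receptor and STAT or IRF rows by library on linear axes from 0, for PR2, PR1 and LC2. Circles, triangles and squares are libraries A, B and C, and the dash and bar give the mean and SD (n = 3). IRF1 in PR1 lies between 16.0 and 16.5 FPKM, under every PR2 and LC2 value, and the groups of IFNGR2 and IRF7 overlap.

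Of the 3 cytoplasmic RNA sensors, 1 was called higher and 1 lower in PR2 than LC2 (13.6% and 9.83% of all tested rows). DDX58 (RIG-I), which detects viral RNA ends, was at 9.13, 11.0 and 11.3 FPKM in PR2, at 6.12, 5.13 and 5.78 in PR1 and at 6.28, 3.43 and 3.73 in LC2. All PR2 libraries were above all others, and DDX58 was higher in PR2 than LC2 by 1.10 (SE 0.20, limma adjusted p = 0.00298) and than PR1 by 0.78 (SE 0.20, limma adjusted p = 0.0202). The call against PR1 was lost without PR1 B, PR1 C, PR2 B or PR2 C.

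IFIH1 (MDA5), the sensor of long double-stranded RNA, was at 9.61, 10.3 and 9.48 FPKM in PR2, at 6.96, 7.32 and 7.92 in PR1 and at 8.30, 6.63 and 6.42 in LC2. PR2 lay above both without overlap, and neither difference passed, at 0.42 over LC2 (SE 0.14, limma adjusted p = 0.0550) and 0.36 over PR1 (SE 0.14, limma adjusted p = 0.0970). With the replicate block the IFIH1 difference from LC2 passed (limma adjusted p = 0.0381). DHX58 (LGP2), a regulator of the other sensors, went the other way, at 1.15, 2.19 and 2.05 FPKM in PR2, 1.103, 1.19 and 0.923 in PR1 and 2.44, 3.97 and 3.44 in LC2. It fell below LC2 in both derivatives, by 0.62 in PR2 on the log2 scale (SE 0.19, limma adjusted p = 0.0407) and by 1.03 in PR1 (SE 0.19, limma adjusted p = 0.00566). Its PR2 call was lost in 10 of 17 alternatives.

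Among the antiviral RNA and nucleotide effectors, 3 of the 4 IFIT genes, which bind viral RNA, were called higher in PR2 than LC2 (13.6% of all tested rows) and 1 in PR1 than LC2 (7.56%). IFIT3 was at 20.5, 26.3 and 30.3 FPKM in PR2, at 16.1, 13.01 and 16.98 in PR1 and at 10.1, 6.71 and 8.86 in LC2, so that no group overlapped another. It was higher than LC2 by 1.48 in PR2 (SE 0.20, limma adjusted p = 0.000529) and by 0.78 in PR1 (SE 0.20, limma adjusted p = 0.0233), and PR2 was above PR1 by 0.70 (SE 0.20, limma adjusted p = 0.0319). The IFIT3 call between the derivatives was lost without PR2 B, PR2 C or any 1 library of PR1. IFIT2, its neighbour on chromosome 10, was at 5.45, 11.4 and 16.1 FPKM in PR2, at 5.70, 8.11 and 8.95 in PR1 and at 3.61, 3.03 and 4.497 in LC2. It was higher in PR2 than LC2 by 1.25 (SE 0.32, limma adjusted p = 0.0174), a call lost without LC2 B, PR2 B or PR2 C, and the PR1 difference of 0.86 (SE 0.32) had an adjusted p of 0.0981, and 0.0239 with the replicate block.

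IFIT1 was low, at 1.75, 2.05 and 1.96 FPKM in PR2, 1.06, 0.931 and 1.03 in PR1 and 1.21, 0.646 and 1.02 in LC2. Its PR2 libraries were above all others, by 0.54 over PR1 (SE 0.14, limma adjusted p = 0.0227) and 0.59 over LC2 (SE 0.14, limma adjusted p = 0.0132). The first was lost under quantile scaling and without PR1 B, PR1 C, PR2 B or PR2 C, and the second without LC2 B, PR2 B or PR2 C. IFIT5 was between 3.68 and 6.61 FPKM with overlap in every comparison.

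Of the OAS enzymes, which make the second messenger that activates RNase L, OAS2 was called. It was at 0.752, 1.09 and 1.07 FPKM in PR2, at 0.182, 0.285 and 0.201 in PR1 and at 1.83, 1.18 and 1.28 in LC2, so that the 3 groups did not overlap. It fell by 0.98 on the log2 scale in PR1 against LC2 (SE 0.14, limma adjusted p = 0.00166) and was higher in PR2 than PR1 by 0.68 (SE 0.14, limma adjusted p = 0.00846). OAS3 lies between OAS1 and OAS2 on chromosome 12. OAS1 and OAS3 averaged 8.09 ± 1.93 and 10.3 ± 2.02 FPKM in PR2, 9.65 ± 2.07 and 9.23 ± 2.51 in PR1 and 12.3 ± 2.38 and 9.72 ± 4.15 in LC2 (SD, n = 3 each) and were called in no comparison, as was OASL.

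The remaining effectors in this role were not called in the main tests, though some passed under alternatives. EIF2AK2 (PKR), which halts translation on double-stranded RNA, lay between 3.34 and 8.13 FPKM. The exonuclease ISG20 was at 2.81, 5.46 and 4.16 FPKM in PR2, at 1.84, 4.52 and 2.70 in PR1 and at 3.79, 14.3 and 11.5 in LC2, where library A stood far below B and C. Its log2 difference from LC2 was -0.95 in PR2 (limma adjusted p = 0.126) and -1.32 in PR1 (limma adjusted p = 0.0554). With the replicate block both ISG20 differences passed, in PR2 (limma adjusted p = 0.00805) and in PR1 (limma adjusted p = 0.00248), as they did without LC2 A. CMPK2 and RSAD2 (viperin) are neighbours on chromosome 2 whose products make an antiviral nucleotide together. RSAD2 was below the level tested, at 0.564, 0.461 and 0.548 FPKM in PR2, 0.0597, 0.114 and 0.0783 in PR1 and 0.630, 0.276 and 0.655 in LC2, with PR1 below all other libraries, and CMPK2 lay between 0.358 and 2.43 FPKM with overlap. CMPK2 in PR1 against LC2 had a log2 difference of -0.67 (SE 0.23, limma adjusted p = 0.0836, and 0.0377 with the replicate block).

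Of the 9 rows of membrane and GTPase effectors, 4 were called higher and 3 lower in PR2 than PR1 (11.0% and 8.92% of all tested rows). MX1, a dynamin-like GTPase that blocks RNA viruses, was at 4.70, 7.33 and 6.61 FPKM in PR2, at 0.522, 1.16 and 0.609 in PR1 and at 8.72, 7.24 and 9.24 in LC2. PR1 stood apart from both. The log2 difference was 2.03 for PR2 over PR1 (SE 0.19, limma adjusted p = 0.000126), -2.42 for PR1 over LC2 (SE 0.19, limma adjusted p = 4.56e-05) and -0.39 for PR2 over LC2 (SE 0.19, limma adjusted p = 0.176). Its neighbour MX2, a GTPase that restricts retroviruses, was at 2.44, 5.92 and 4.47 FPKM in PR2, at 0.738, 1.81 and 2.15 in PR1 and at 4.57, 3.05 and 4.66 in LC2. PR1 lay below both, with a log2 difference of -1.02 from LC2 (SE 0.29, limma adjusted p = 0.0410), and PR2 was above PR1 by 1.03 (SE 0.29, limma adjusted p = 0.0337). The first of these calls was lost with no filter on low values and without any 1 library of LC2 or PR1, PR2 C or the 3 A libraries. The second was lost with no filter, with only the compared groups and without PR1 A, PR1 B, PR2 B or PR2 C.

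The guanylate-binding proteins GBP1, GBP2 and GBP3 attack pathogen membranes inside cells, and GBP1 and GBP3 are similar enough that shared reads make each value uncertain. GBP3 was at 10.2, 15.7 and 17.9 FPKM in PR2, at 7.55, 5.91 and 6.29 in PR1 and at 11.5, 6.64 and 6.43 in LC2. It was higher in PR2 than PR1 by 1.01 (SE 0.25, limma adjusted p = 0.0177) and than LC2 by 0.77 (SE 0.25, limma adjusted p = 0.0474), where LC2 A lay above PR2 A. The first call was lost without PR1 B, PR1 C, PR2 B or PR2 C, and the second in 12 of 18 alternatives, among them without LC2 B, LC2 C, PR2 B, PR2 C or any 1 library of PR1. GBP1 was at 3.16, 5.84 and 6.15 FPKM in PR2, at 1.34, 1.91 and 2.596 in PR1 and at 5.26, 2.61 and 1.69 in LC2. PR2 was above PR1 by 1.02 (SE 0.32, limma adjusted p = 0.0487), and that call ended with the replicate block (limma adjusted p = 0.0529) and in 10 of the other 17 alternatives, namely quantile and median-of-ratios scaling, a filter at 5 FPKM or none, and without LC2 B, PR2 B, PR2 C or any 1 library of PR1. GBP2 was at 1.28, 7.85 and 8.29 FPKM in PR2, at 1.46, 3.94 and 1.97 in PR1 and at 5.75, 7.42 and 5.05 in LC2, with PR2 A below every LC2 library, and it was not called.

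The IFITM proteins, which stop viruses from fusing with endosomes, were by FPKM the most abundant members with LGALS3BP, and they had their lowest means in PR2. The joined IFITM1 and IFITM2 row was at 163, 419 and 406 FPKM in PR2, at 740, 1065 and 674 in PR1 and at 446, 837 and 530 in LC2. Each PR2 value was below every other value. The row was lower in PR2 than PR1, by a log2 difference of -1.42 (SE 0.38, limma adjusted p = 0.0250, lost with no filter on low values and without PR1 A or PR1 B). It was not called against LC2 (-0.94, SE 0.38, limma adjusted p = 0.0991, and 0.0191 with the replicate block). IFITM3 was at 809, 1713 and 1519 FPKM in PR2, at 2511, 3070 and 1995 in PR1 and at 1705, 2518 and 1886 in LC2. PR2 lay below PR1 in all libraries, with a log2 difference of -0.96 (SE 0.30, limma adjusted p = 0.0472). That call was lost in 12 of 18 alternatives, among them without PR2 A, PR2 C or any 1 library of PR1 or LC2. The members of this family share near-identical sequence, so that reads could be divided between their rows in ways the table does not show.

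BST2 (tetherin), which holds budding virus on the cell surface, was also lower in PR2 than PR1. It was at 74.1, 119 and 93.5 FPKM in PR2, at 163, 168 and 150 in PR1 and at 106, 138 and 94.7 in LC2. PR1 was above every other library, and PR2 over PR1 had a log2 difference of -0.77 (SE 0.20, limma adjusted p = 0.0242), a call lost without PR1 A, PR1 B, PR1 C, PR2 A, PR2 C or the 3 A libraries. BST2 in PR1 over LC2 passed with the replicate block (0.52, limma adjusted p = 0.0371, against 0.113 without it). PLSCR1, a lipid scramblase, lay between 24.9 and 59.0 FPKM with overlap in every comparison.

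Of the genes grouped here with the ISG15 system, in which ISG15 is attached to proteins, ISG15 itself and HERC6 were called. ISG15 was at 69.5, 91.7 and 73.2 FPKM in PR2, at 50.5, 33.6 and 27.8 in PR1 and at 49.4, 35.7 and 33.4 in LC2. The PR2 libraries were above all others, by 1.08 over PR1 (SE 0.24, limma adjusted p = 0.0108) and 0.98 over LC2 (SE 0.24, limma adjusted p = 0.0142). HERC6, a HECT-type ligase of the HERC family, was at 6.79, 6.17 and 6.84 FPKM in PR2, at 2.74, 1.82 and 2.32 in PR1 and at 3.67, 1.68 and 1.95 in LC2. HERC6 was higher in PR2 by 1.21 over PR1 (SE 0.21, limma adjusted p = 0.00332) and by 1.19 over LC2 (SE 0.21, limma adjusted p = 0.00271). PR1 and LC2 overlapped for both genes, and the ISG15 call against LC2 was lost without LC2 B, LC2 C or PR2 B.

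HERC5, the main human ISG15 ligase and the neighbour of HERC6 on chromosome 4, was below the level tested at 0.480, 0.513 and 0.651 FPKM in PR2, 0.136, 0.0341 and 0.0651 in PR1 and 0.569, 0.452 and 0.352 in LC2, with PR1 below all other libraries. With no filter on low values HERC5 and RSAD2 were both called lower in PR1 than LC2 and higher in PR2 than PR1. UBE2L6, the conjugating enzyme, was the most abundant gene of this role and was at 61.5, 108 and 104 FPKM in PR2, at 53.8, 74.8 and 73.0 in PR1 and at 84.3, 109 and 96.7 in LC2. PR1 lay below LC2 without overlap, with a log2 difference of -0.52 (SE 0.23, limma adjusted p = 0.164, and 0.0252 with the replicate block). USP18, the protease that removes ISG15 and dampens receptor signalling, averaged 11.7 ± 2.64 FPKM in PR2, 13.3 ± 2.38 in PR1 and 11.5 ± 1.26 in LC2 (SD, n = 3 each) and overlapped in every comparison; it has a close copy, USP41, whose reads it may share.

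The TRIM ligases and the nuclear body and ADP-ribosylation genes held 1 call, in PR1 over LC2, where 15.5% of all tested rows were called. TRIM25, which ubiquitinates RIG-I, was at 38.2, 32.1 and 33.0 FPKM in PR2, at 24.3, 22.6 and 31.8 in PR1 and at 29.1, 21.5 and 21.5 in LC2. It was above both in every PR2 library without passing (0.51 over LC2, SE 0.18, limma adjusted p = 0.0665, and 0.0371 with the replicate block). TRIM22 was low in the A libraries of the derivatives, at 1.49 FPKM in PR2 A and 0.905 in PR1 A, against 7.05 in LC2 A, and was not called, though PR1 passed as lower than LC2 with the replicate block (-1.15, limma adjusted p = 0.0252). PARP9, an ADP-ribosyltransferase, was at 9.46, 15.04 and 13.7 FPKM in PR2, at 9.85, 9.86 and 12.96 in PR1 and at 22.7, 17.7 and 17.6 in LC2. It fell by 0.78 in PR1 against LC2 (SE 0.20, limma adjusted p = 0.0257), a call lost without PR1 A, PR1 B, any 1 library of LC2 or the 3 A libraries. The PR2 difference of -0.58 (SE 0.20) had a limma adjusted p of 0.0593, and 0.0490 with the replicate block. PARP14, TRIM14 and SP110 overlapped in every comparison, and SP100 did not exceed 0.380 FPKM.

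The largest differences were in the remaining induced genes. Of their 9 rows, 7 were higher in PR2 than PR1 (11.0% of all tested rows) and 6 lower in PR1 than LC2 (7.98%). IFI6, a mitochondrial and endoplasmic reticulum protein that protects cells from death, was at 31.9, 46.8 and 36.6 FPKM in PR2, at 2.598, 4.25 and 3.80 in PR1 and at 31.7, 16.5 and 20.5 in LC2. It was higher in PR2 than PR1 by 3.12 (SE 0.25, limma adjusted p = 4.07e-05) and lower in PR1 than LC2 by a log2 change of -2.36 (SE 0.25, limma adjusted p = 0.000267). Every PR2 value lay above every LC2 value, though PR2 A at 31.9 FPKM was close to LC2 A at 31.7. The log2 difference of 0.76 (SE 0.25) did not pass (limma adjusted p = 0.0528). It passed under quantile scaling and without LC2 A, PR1 A, PR2 A or the 3 A libraries. The IFI6 window, printed above, held the most ISRE matches of those shown.

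IFI35, a protein that binds NMI, had the smallest spread of the large changes. It was at 21.5, 25.9 and 25.6 FPKM in PR2, at 2.12, 2.39 and 2.09 in PR1 and at 8.63, 8.25 and 8.26 in LC2, and the groups were far apart. IFI35 was higher in PR2 than PR1 by 2.98 (SE 0.13, limma adjusted p = 2.39e-06), higher in PR2 than LC2 by 1.43 (SE 0.13, limma adjusted p = 6.32e-05) and lower in PR1 than LC2 by a log2 change of -1.55 (SE 0.13, limma adjusted p = 7.21e-05). All 3 calls held under 18 of 18 alternatives.

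IFI27, a mitochondrial and nuclear protein, was at 40.0, 103 and 95.8 FPKM in PR2, at 10.4, 16.4 and 9.66 in PR1 and at 132, 63.7 and 133 in LC2. PR1 was below every other library, by a log2 change of -3.03 against LC2 (SE 0.39, limma adjusted p = 0.000908), and PR2 was above PR1 by 2.54 (SE 0.39, limma adjusted p = 0.00185). PR2 and LC2 overlapped, with PR2 A and LC2 B the low libraries of their groups. XAF1, which opposes the caspase inhibitor XIAP, was at 3.07, 4.64 and 3.93 FPKM in PR2, at 0.270, 0.802 and 0.540 in PR1 and at 2.31, 2.15 and 2.73 in LC2. It fell by 1.15 in PR1 against LC2 (SE 0.17, limma adjusted p = 0.00200) and was higher in PR2 than PR1 by 1.67 (SE 0.17, limma adjusted p = 0.000202). XAF1 lay above LC2 in every PR2 library without passing (0.51, SE 0.17, limma adjusted p = 0.0585, and 0.02495 with the replicate block).

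SAMD9 and SAMD9L are neighbouring genes on chromosome 7 whose proteins restrict poxviruses and cell growth. SAMD9L was at 3.63, 5.44 and 6.28 FPKM in PR2, at 0.587, 0.590 and 0.665 in PR1 and at 3.42, 1.55 and 1.40 in LC2. All PR2 values were above all LC2 values and all PR1 values below them, with log2 differences of 1.90 for PR2 over PR1 (SE 0.24, limma adjusted p = 0.000639), 1.003 for PR2 over LC2 (SE 0.24, limma adjusted p = 0.0145) and -0.89 for PR1 over LC2 (SE 0.24, limma adjusted p = 0.0340). The second of these calls was lost without LC2 B, LC2 C or PR2 C, and the third with no filter on low values and without LC2 A, LC2 B or any 1 library of PR1. SAMD9 was at 2.97, 4.76 and 6.12 FPKM in PR2, at 1.22, 0.897 and 1.33 in PR1 and at 4.08, 1.37 and 1.11 in LC2. It was higher in PR2 than PR1 by 1.35 (SE 0.32, limma adjusted p = 0.0156, lost without PR1 B or PR2 C), and LC2 A stood apart from LC2 B and C for both genes.

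LGALS3BP, a secreted glycoprotein, was the most abundant of these genes, at 743, 1248 and 1119 FPKM in PR2, 603, 716 and 628 in PR1 and 957, 1255 and 1070 in LC2. It fell by 0.75 in PR1 against LC2 (SE 0.21, limma adjusted p = 0.0407), a call lost under median-of-ratios scaling, with no filter on low values and without LC2 B, LC2 C, PR2 C or any 1 library of PR1. PR2 lay above PR1 without passing (0.64, SE 0.21, limma adjusted p = 0.0593), and passed with the replicate block (limma adjusted p = 0.0144). EPSTI1, an interferon-induced gene of epithelial and stromal cells, was at 2.19, 1.87 and 2.41 FPKM in PR2, at 0.786, 0.600 and 0.707 in PR1 and at 1.16, 0.757 and 0.666 in LC2. EPSTI1 was higher in PR2 by 0.89 over PR1 (SE 0.14, limma adjusted p = 0.00215) and by 0.77 over LC2 (SE 0.14, limma adjusted p = 0.00363). The joined IFI44 and IFI44L row was at 10.4, 13.5 and 12.3 FPKM in PR2, at 8.38, 7.86 and 7.37 in PR1 and at 12.7, 8.88 and 6.18 in LC2, and was not called.

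**Figure D3:**
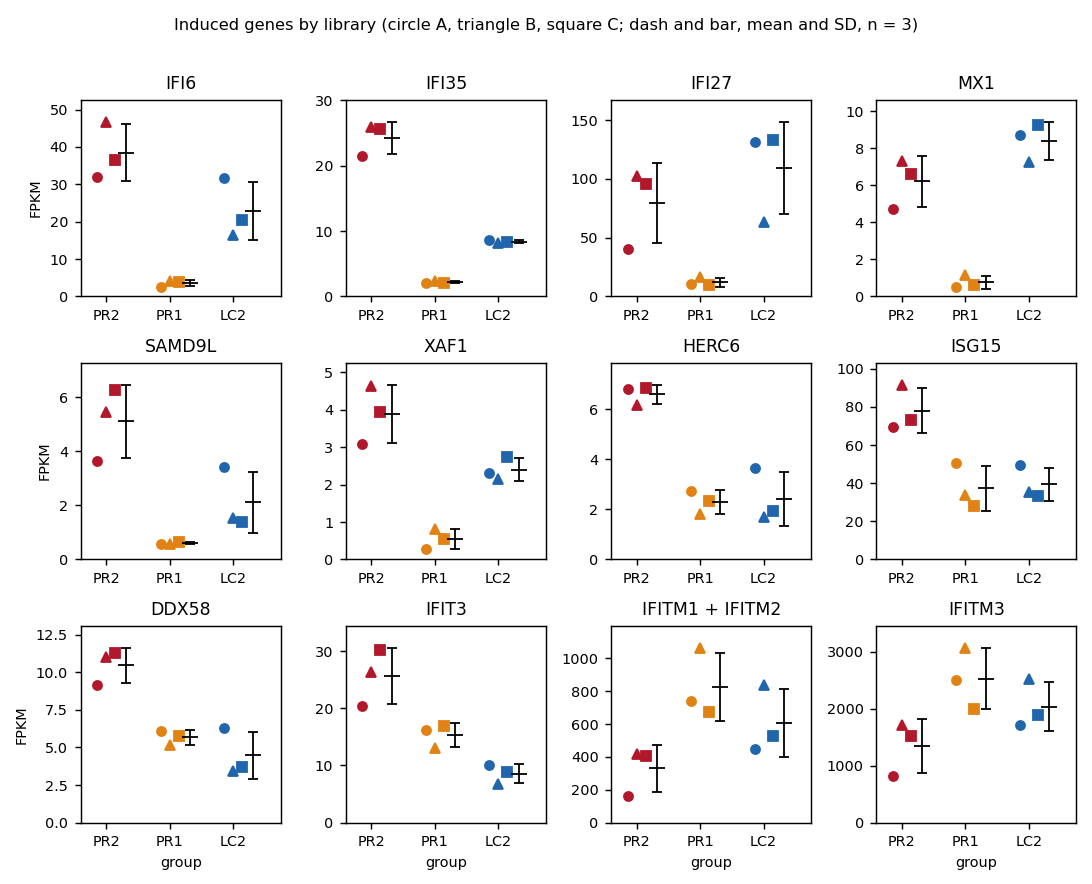
FPKM of 12 induced rows by library, on linear axes from 0, for PR2, PR1 and LC2; circles, triangles and squares are libraries A, B and C, and the dash and bar give the mean and SD (n = 3). PR1 lies lowest for IFI6, IFI35, IFI27, MX1, SAMD9L and XAF1, PR2 lies highest for HERC6, ISG15, DDX58 and IFIT3, and PR2 lies lowest for the joined IFITM1 and IFITM2 row.

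Of the tested rows, 25 were called in no comparison, and a missing call does not show that levels were alike.

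**Figure D4:**
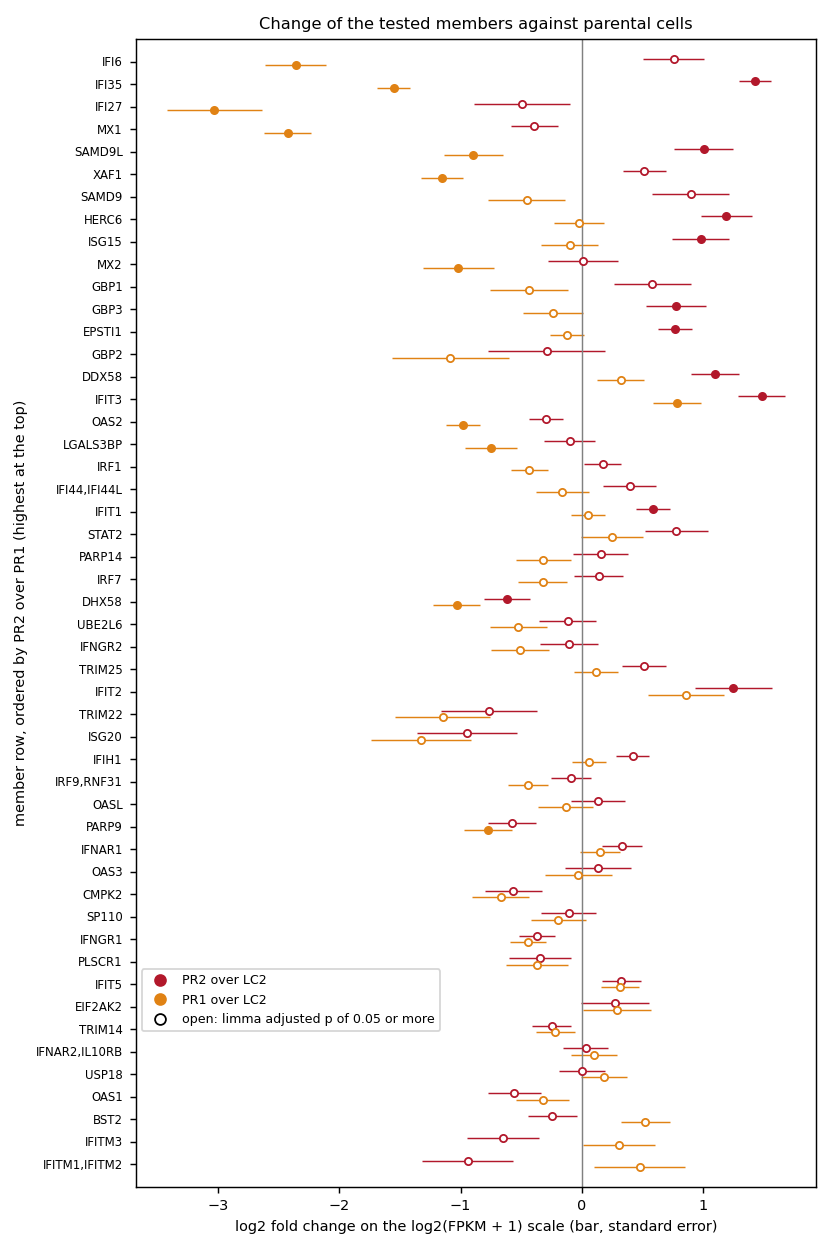
Log2 fold change of the 50 tested rows for PR2 over LC2 and PR1 over LC2 on the log2(FPKM + 1) scale, with standard errors. Filled points have a limma adjusted p under 0.05, and rows run from the highest to the lowest difference between PR2 and PR1. IFI6, at the top, stands at 0.76 in PR2 and -2.36 in PR1, and the joined IFITM1 and IFITM2 row, at the bottom, stands at -0.94 and 0.47.

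In RefSeq, 25 of the 55 genes stand next to another member. MX1 and MX2 were both lower in PR1 than LC2 and higher in PR2 than PR1, and SAMD9 and SAMD9L were both higher in PR2 than PR1. OAS2 was called while its neighbour OAS3 was not, and IFIT5 was not called beside IFIT1. Calls were also counted by promoter letters. Between the derivatives, 10 of the 25 tested rows with an ISRE core were higher in PR2 and 3 lower. Of the 15 with a window but no core, 6 were higher and 0 lower, and of the 10 without a window 2 were higher. Over all tested rows, 11.0% were higher and 8.92% lower. The higher rows made up the same share with a core as with a window but no core.

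Other genes of the pathway were described from lists of 82 rows, of which 53 were tested. Of these, 11 were higher and 3 lower in PR2 than PR1, 13 higher and 5 lower in PR2 than LC2, and 3 higher and 4 lower in PR1 than LC2, beside the shares over all rows given above; the 7 called in PR1 over LC2 are no larger a share than the 15.5% of all rows. Interferon ligands were nearly absent: 16 of 21 rows were listed at 0 in all libraries, and the highest value of the other 5 was 0.214 FPKM. STAT3, which cytokine receptors activate, was at 51.5, 57.7 and 63.1 FPKM in PR2, at 24.7, 30.8 and 42.3 in PR1 and at 46.7, 39.2 and 46.9 in LC2. It exceeded PR1 in every PR2 library, by 0.83 on the log2 scale (SE 0.20, limma adjusted p = 0.0157), a call lost without PR1 B, PR2 B or PR2 C. The kinases JAK1 and TYK2 lay between 15.7 and 30.0 FPKM and were not called. JAK2 was at 1.55, 1.24 and 1.08 FPKM in PR2, at 1.46, 1.48 and 1.72 in PR1 and at 0.925, 0.785 and 0.817 in LC2. It was higher in PR1 than LC2 by 0.47 (SE 0.13, limma adjusted p = 0.0340), a call lost with only the compared groups and without LC2 B, LC2 C, PR2 B, PR2 C or any 1 library of PR1. JAK2 reached 1 FPKM in every library of PR2 and PR1 and in none of LC2. It thus passed the filter only through groups in which it is higher.

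IRF5, a factor of inflammatory and interferon responses, was called lower in PR1 than in PR2 and LC2. It was at 3.35, 2.77 and 2.995 FPKM in PR2, at 0.629, 0.420 and 0.538 in PR1 and at 3.81, 4.68 and 3.35 in LC2. PR1 fell by 1.69 against LC2 (SE 0.14, limma adjusted p = 7.07e-05), and PR2 was above PR1 by 1.40 (SE 0.14, limma adjusted p = 0.000173). RTP4, an induced receptor chaperone, was at 1.79, 3.15 and 3.33 FPKM in PR2, at 0.303, 0.706 and 0.450 in PR1 and at 2.99, 3.22 and 2.45 in LC2, and likewise fell in PR1 by 1.39 (SE 0.19, limma adjusted p = 0.00129) and was higher in PR2 than PR1 by 1.32 (SE 0.19, limma adjusted p = 0.00125). Both IRF5 and RTP4 were under 1 FPKM in every PR1 library and passed the filter only through PR2 and LC2, in which they are higher.

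Several induced genes outside the 55 were called at 2-fold or more against LC2. MB21D1 (cGAS), the DNA sensor, was higher in PR2 by 1.15 (SE 0.20, limma adjusted p = 0.00233), and NLRC5, the activator of MHC class I genes, by 1.24 (SE 0.20, limma adjusted p = 0.00182). MB21D1 reached 1 FPKM in all libraries of PR2 and PR1 but not of LC2, so it passed the filter through groups in which it is higher. IDO1, a tryptophan-degrading enzyme, was at 0.144, 1.52 and 1.21 FPKM in PR2, at 0.747, 1.79 and 1.60 in PR1 and at 10.7, 15.9 and 9.29 in LC2. Both derivatives fell below LC2, by 2.77 in PR2 (SE 0.31, limma adjusted p = 0.000212) and by 2.44 in PR1 (SE 0.31, limma adjusted p = 0.000832). IDO1 reached 1 FPKM in all libraries of LC2 alone. LY6E, a membrane protein that blocks coronavirus entry, fell too, by 1.84 in PR2 (SE 0.19, limma adjusted p = 0.000128) and by 1.01 in PR1 (SE 0.19, limma adjusted p = 0.00654). LY6E was also lower in PR2 than PR1, with a log2 difference of -0.83 (SE 0.19, limma adjusted p = 0.0141, lost without PR1 B or PR2 C). The joined IFI16 and PYHIN1 row, of DNA sensors, fell by 1.08 in PR2 (SE 0.23, limma adjusted p = 0.00854), and IFI30, a lysosomal thiol reductase, was higher in PR1 by 1.17 (SE 0.21, limma adjusted p = 0.00491). IFI30 was also higher in PR2 than LC2, by 0.82 (SE 0.21, limma adjusted p = 0.0180, lost without LC2 C or PR2 C), and was not called between the derivatives. Between the derivatives, PARP12 was higher in PR2 by 1.13 (SE 0.18, limma adjusted p = 0.00251) and APOL1 by 1.08 (SE 0.31, limma adjusted p = 0.0349, lost with no filter on low values, with only the compared groups and without PR2 B, PR2 C or any 1 library of PR1).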

How the data were processed

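The deposited table holds 1 value per row and library for 24069 rows; the authors' values are read here as FPKM, an inference, since the header names no unit and the submitters' processing notes name Cufflinks 2.2.1 and Cuffdiff 2.2.1 after TopHat2 2.0.14, with the builds GRCh37 and hg19. Library sums of the deposited FPKM were 571570 to 686460, and absolute depth is unknown. The sources used here state neither strand nor annotation. Per the labels, column-purified RNA went into a TruSeq RNA preparation.

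The 12011 rows that reached 1 FPKM in 3 or more of the 9 libraries were fitted as log2(FPKM + 1) with limma 3.58.1 in R 4.3.3, with 1 mean per group, an intensity trend, two-sided tests and Benjamini-Hochberg adjustment over all tested rows. The method was tested on simulated data. Members were found by symbol, and all 55 matched RefSeq, DDX58 under its symbol RIGI. The members, lists and named genes (called at 2-fold or more, every receptor and factor, and the most abundant of each role) were chosen with earlier results of these data known; the other called members, and some that were not called, were named after their values were seen. Alternatives were quantile and median-of-ratios scaling, a pseudocount of 0.1, a filter at 5 FPKM or none, only the compared groups, no trend, the library letter as a replicate block, each library left out and the 3 A libraries left out. Deviations of same-lettered libraries correlated at 0.31, 0.48 and 0.16 (A, B and C) for PR1 with LC2 and at 0.53, 0.54 and 0.25 for PR2 with PR1. For PR2 with LC2 they correlated at 0.30, 0.42 and 0.014. Letters A and B gave near values for PR1 and for PR2 with LC2, so only letter C sets these comparisons apart. Whether the letters pair any groups is therefore not settled. The main tests left the letters out, and the block is given as an alternative for every comparison. No protein sequence was used here. A result on 1 other pathway gene is not reported here.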

Additional observations from a re-analysis of the deposited data

Results flagged for a closer look

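The change against LC2 differed between PR2 and PR1 for 21 member rows, by the limma test of PR2 over PR1 (adjusted p under 0.05). In that test 19.9% of all tested rows were called. LC2 cancels in this difference, so these are the same 21 calls as given above and no further result. The log2 difference between the 2 changes was 3.12 for IFI6, 2.98 for IFI35, 2.54 for IFI27, 2.03 for MX1, 1.90 for SAMD9L, 1.67 for XAF1, 1.35 for SAMD9, 1.21 for HERC6, 1.08 for ISG15 and 1.03 for MX2. It was 1.02 for GBP1, 1.01 for GBP3, 0.89 for EPSTI1, 0.78 for DDX58, 0.70 for IFIT3, 0.68 for OAS2, 0.61 for IRF1 and 0.54 for IFIT1. It was negative for the joined IFITM1 and IFITM2 row at -1.42, for IFITM3 at -0.96 and for BST2 at -0.77.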

How the results depend on the processing

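Depth is unknown, and 3 libraries per group limit what could be called. Of the called rows, 4 of 12 in PR1 over LC2, 4 of 11 in PR2 over LC2 and 6 of 21 in PR2 over PR1 kept their call under all 18 alternatives, and another 3, 1 and 4 under the 17 in which they were tested, without the filter at 5 FPKM. The causes of the changes below were not tested. The share of all rows called under each alternative was not counted, so a changed count cannot be read as particular to the members. With the replicate block, PR1 had 3 members higher and 18 lower than LC2, and PR2 had 14 higher and 4 lower than LC2. Between the derivatives, 19 were higher and 3 lower in PR2 than PR1. The block ended only the GBP1 call. In PR2 over LC2 it added IFIH1, STAT2, TRIM25 and XAF1 as higher, and the joined IFITM1 and IFITM2 row, ISG20 and PARP9 as lower. Without the 3 A libraries, PR1 had 2 members higher than LC2, PR2 had 17 higher and 2 lower than LC2, and 1 was lower in PR2 than PR1. With the filter at 5 FPKM, where 39 member rows were tested, PR1 had 6 lower than LC2, PR2 had 6 higher and 0 lower than LC2, and 10 were higher in PR2 than PR1. With only the compared groups, PR1 had 2 higher and PR2 had 0 lower than LC2. PR2 had 2 lower than LC2 under quantile and under median-of-ratios scaling, and 0 with a pseudocount of 0.1 or with no filter, where 1 was lower in PR2 than PR1. Leaving out each library gave 0 to 2 higher and 7 to 14 lower in PR1 than LC2, 5 to 16 higher and 0 to 2 lower in PR2 than LC2, and 10 to 23 higher and 0 to 3 lower in PR2 than PR1.

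Signs were followed for called rows and for the genes named by rule (called at 2-fold or more, every receptor and factor, and the most abundant of each role). Among these, log2 values that changed sign were all uncalled. Other uncalled rows were not followed. Under quantile scaling IFIH1 was -0.0067 in PR1 over LC2, and in PR2 over LC2 MX2 was -0.0723, UBE2L6 0.0108 and LGALS3BP 0.0626. Under median-of-ratios scaling, in PR2 over LC2, the IFNAR2 and IL10RB row was -0.0069 and MX2 -0.019, and MX2 was -0.0018 with a pseudocount of 0.1. Without the A libraries, GBP1 was 0.0544, HERC6 0.124 and PARP14 0.0039 in PR1 over LC2, UBE2L6 0.0461, IFI27 0.1064 and LGALS3BP 0.0278 in PR2 over LC2, and IFNGR1 -0.0223 in PR2 over PR1. Leaving out each library, PR1 over LC2 gave -0.0312 to 0.2614 for the IFNAR2 and IL10RB row, -0.0007 to 0.4543 for STAT2, -0.0059 to 0.1576 for IFIH1, -0.3715 to 0.0038 for GBP3, -0.3364 to 0.0819 for ISG15 and -0.1808 to 0.2205 for HERC6. PR2 over LC2 gave -0.0539 to 0.1818 for the IFNAR2 and IL10RB row, -0.2837 to 0.123 for IFNGR2, -0.0107 to 0.2693 for IRF7, -0.187 to 0.0529 for the IRF9 and RNF31 row, -0.2161 to 0.2883 for MX2, -0.2606 to 0.1388 for UBE2L6 and -0.2536 to 0.12 for LGALS3BP. PR2 over PR1 gave -0.2316 to 0.0834 for the IFNAR2 and IL10RB row. The share of members with the longer ISRE core was 61.4%, against 4.16% of coding genes.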
